A study of Mus musculus with 24 samples.

Results

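Oxidative phosphorylation genes encoded in the nucleus were followed in bulk RNA-seq of mouse bone-marrow-derived macrophages (BMDM). The members were the rows of the raw count table whose symbol starts with Nduf, Uqcr, Atp5, Cox4, Cox5, Cox6, Cox7 or Cox8, or is Sdha, Sdhb, Sdhc, Sdhd or Cycs. This rule gave 93 of the 24557 rows. By name they comprised 38 genes of complex I, 4 of complex II, 8 of complex III, 18 of complex IV, 16 of complex V, cytochrome c, and 8 complex I assembly factors (Ndufaf1 to Ndufaf8). The rule reads names only.

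The 24 libraries fell into 6 groups of 4 biological replicates. BMDM came from wild-type (WT) mice or from Ltb4r2-/- mice, which lack leukotriene B4 receptor 2 (BLT2) in all tissues, are on a C57BL/6J background and were compared with WT littermates. All cells were grown for 7 days with 10 ng/ml M-CSF. They were then left unpolarized (M0), given 10 ng/ml LPS with 25 ng/ml IFN-γ (M1-like), or given 10 ng/ml IL-4 (M2-like) for 16 h. Per the study the replicates of a group were different animals. The age of the marrow donors, and whether the 3 states were made from the marrow of the same mice, are not given in the sources used here.

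Oxidative phosphorylation passes electrons from NADH and succinate through complexes I to IV to oxygen, and complex V (ATP synthase) uses the resulting proton gradient to make ATP. Most subunits are encoded in the nucleus, and a small core is encoded by mitochondrial DNA. Macrophages stimulated with LPS and IFN-γ are known to shift toward glycolysis, whereas IL-4-stimulated macrophages are known to rely more on oxidative metabolism. The comparisons here ask how the transcript counts of these genes differed between polarization states and between genotypes.

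The members had few counts. Together they held 13216 of 12805146 counts (0.103%), and library totals ranged from 427825 to 729580. The member sum was 271 to 856 counts in a library. Of the 93 genes, 87 had at least 1 count, 71 had at least 10 counts over all 24 libraries, 22 had at least 50 and 12 had at least 100. Atp5s, Cox7b2, Cox8c, Ndufa4l2, Ndufaf1 and Ndufs5 had none, which allows up to 0.234 CPM (counts per 1000000 counts, here of the whole table) for each of these 6 genes (3 counts, counting error only). Only 10 members passed the filter on low counts (at least 10 counts at the depth of these libraries in as many libraries as the smallest group) and could be tested in the fit of all 24 libraries: Ndufa2, Ndufa13, Ndufv3, Ndufs1, Ndufs8, Cox7c, Atp5f1, Atp5j, Atp5b and Atp5a1. None of the 26 mitochondrially encoded genes looked for had a row in the count table used.

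Much of the signal lay where 2 genes overlap on opposite strands. In the GENCODE annotation of the files' build (mm10), 24.1% of 24199 placed genes have an exon that overlaps an exon on the other strand, and these genes held 90.6% of the counts. Among the members, 29 of 93 (31.2%) have such an overlap and they held 76.4% of the member counts. Genes that are abundant in most cells had few counts: Actb had 30 to 133 per library and Gapdh 7 to 75. The libraries were strand-specific per the labels, and the strand setting of the read counting is not given in the sources used here. Counts under a symbol are therefore reported below as counts of that row, and how far they stand for the named gene rather than for a transcript of the other strand was not tested.

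Marker genes were read beside the polarization labels. Of 8 tested M1 markers (of 15 listed, among them Nos2 and Cxcl9) all 8 rose in M1 in both genotypes. In each M1 group 8 of the 15 reached a mean of 10 counts, and 0 did in either M0 group. The 8 thus passed the filter through M1, and their direction is no check of the labels. Summed over all 15, the level was 22.3 to 49.7 CPM in WT M0 and 12.2 to 23.5 CPM in Ltb4r2-/- M0. In M1 it was 1817 to 2239 and 1848 to 2282 CPM. Of 6 tested M2 markers, 4 rose in WT and 5 in Ltb4r2-/- cells in M2. Of the 10 listed, 5 reached a mean of 10 counts in each M2 group and 1 in each M0 group, so the filter favoured M2. Summed over the 10, the level was 27.3 to 52.0 and 20.5 to 41.9 CPM in M0 (WT and Ltb4r2-/-). It was 54.2 to 117 and 67.9 to 140 CPM in M1, and 138 to 269 and 148 to 310 CPM in M2. In M1, Tgm2 of this list rose (log2 fold change 2.17 and 2.41) and Mrc1 fell (-5.02 and -3.83). Of 14 macrophage identity genes 11 were tested, and their summed level moved with polarization. It was 2051 to 2527 CPM in WT M0 and 1849 to 2345 CPM in Ltb4r2-/- M0, 858 to 1336 and 702 to 931 CPM in M1, and 810 to 1237 and 939 to 1057 CPM in M2. The M0 libraries thus lay above all others. In WT M1 3 of the 11 were called higher and 3 lower, in Ltb4r2-/- M1 2 and 6, and in M2 of either genotype 1 and 3. Of all tested genes 51.2% and 52.8% were called in M1 (WT and Ltb4r2-/-) and 27.0% and 32.0% in M2. Apoe, a lipid carrier made by macrophages, fell in all 4 comparisons (log2 fold change -2.79 in WT and -3.86 in Ltb4r2-/- M1, and -1.86 and -2.15 in M2), as did Lyz2 (lysozyme), whereas Adgre1, which encodes F4/80, rose in M1 (2.09 and 1.74). No gene of the neutrophil, T and NK cell, B cell, mast cell and basophil, or stromal lists passed the filter, and their summed levels reached at most 27.3, 6.85, 22.0, 16.7 and 11.1 CPM, respectively. Of 8 erythroid genes only Alas2 was tested, and it was lower in Ltb4r2-/- M1 (log2 fold change -1.73, SE 0.72, adjusted p = 0.044). Of 9 dendritic cell genes 3 were tested, and Flt3, Zbtb46 and Cd209a of the same list had 0 counts. The summed level of this list was 35.3 to 59.5 and 64.6 to 111 CPM in M0 (WT and Ltb4r2-/-), 493 to 841 and 691 to 1085 CPM in M1, and 129 to 187 and 144 to 205 CPM in M2. Its tested genes moved in both directions: in M1 Xcr1 rose (4.81 and 4.59) and Clec9a fell (-3.79 and -7.63), and Itgax rose in M2 (4.13 and 5.74). The part of these shifts of both lists in the members' values was not tested. Ltb4r2 itself had 0 counts in all 12 WT libraries and 14 counts in the Ltb4r2-/- libraries, so this row does not separate the genotypes in the labelled direction and does not check the deletion.

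The summed CPM of the 93 genes was highest in M2 and lowest in M1. CPM are counts divided by library size after TMM scaling. In WT cells the sum was 921, 790, 895 and 972 in the M0 libraries (895 ± 76.9, SD, n = 4), 741, 849, 743 and 859 in M1 (798 ± 64.7), and 1335, 1558, 1335 and 1342 in M2 (1393 ± 110). The Ltb4r2-/- libraries had 883, 964, 875 and 1106 in M0 (957 ± 107), 738, 786, 956 and 774 in M1 (813 ± 96.8), and 1234, 1310, 1407 and 1467 in M2 (1355 ± 103). Every M2 library lay above every M0 and M1 library, while the M0 and M1 libraries overlapped. The M2 mean was 1.56 times the M0 mean in WT and 1.42 times in Ltb4r2-/- cells, and the M1 mean was 0.892 and 0.850 times the M0 mean. No test was run on a sum over chosen genes. In bulk RNA, fewer cells of a type and less RNA per cell cannot be told apart.

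Atp5f1 (5046 counts) and Atp5j (3085 counts), which both encode parts of the peripheral stalk of ATP synthase, together held 61.5% of all member counts. Atp5f1 alone made up 320 of the 498 CPM by which WT M2 exceeded WT M0, and 267 of the 397 CPM in Ltb4r2-/- cells. In M1 the sum was lower by 96.5 CPM in WT, within which Atp5f1 was lower by 197 CPM. The corresponding Ltb4r2-/- values were 144 and 182 CPM. The other 91 genes summed to 308 ± 51.9 (M0), 451 ± 46.0 (M1) and 441 ± 50.2 CPM (M2) in WT, and to 350 ± 22.6, 427 ± 16.2 and 461 ± 48.0 CPM in Ltb4r2-/- cells. Without the leading pair, M1 thus stood above M0 rather than below it, 1.46-fold in WT and 1.22-fold in Ltb4r2-/- cells. In M2 these 91 genes stood at 1.43 and 1.32 times M0, against 1.56 and 1.42 for all 93. The M1 direction depended on the scaling. With libraries scaled by total count alone, the M1 sum of the other 91 genes was 0.95 times that of M0 in WT and 0.803 times in Ltb4r2-/- cells, and the M1 sum of all 93 was 606 and 628 CPM against 1043 and 1117 CPM in M0.

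**Figure D1:**
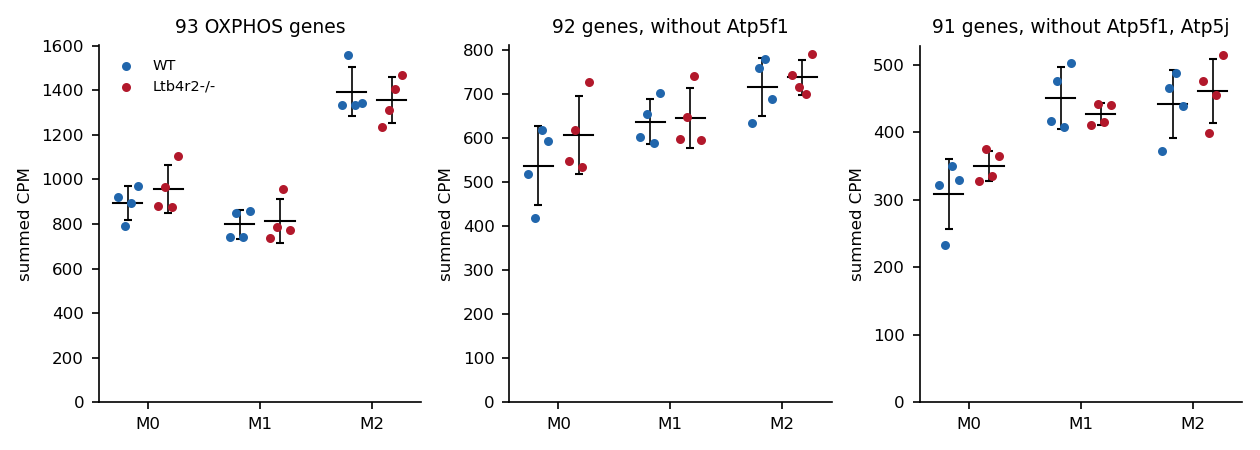
Summed CPM (vertical axis) of all 93 oxidative phosphorylation genes, of 92 genes without Atp5f1, and of 91 genes without Atp5f1 and Atp5j, by polarization state. Points are the 4 libraries of each group, and horizontal lines with bars are mean and SD. The M2 excess in the first panel (1393 and 1355 against 895 and 957 in M0) is smaller in CPM once Atp5f1 is taken out, and in the third panel M1 lies above M0 (with total-count scaling it lay below, at 0.95 and 0.803 times M0).

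In M1 cells a small number of members changed, in both directions. In WT, 4 of the 10 tested members passed the test in M1 against M0, where 51.2% of the 3047 genes tested were called: Ndufa2 and Ndufa13 rose (26.9% of all tested genes did), and Atp5f1 and Ndufv3 fell (24.3%). In Ltb4r2-/- cells Ndufa2 rose and Atp5f1 fell, 2 of 10 members where 52.8% of tested genes were called (27.1% higher, 25.7% lower). The share of members called (4 and 2 of 10) was no larger than the background. Scaling by total count alone lowered the median of all tested genes by 0.64 in WT M1 and 0.60 in Ltb4r2-/- M1 on the log2 scale, and turned the calls over all genes in WT M1 from 819 higher and 741 lower to 475 and 1358, and in Ltb4r2-/- M1 from 827 and 783 to 506 and 1370. The median log2 fold change of the 10 members was 0.46 in WT and 0.28 in Ltb4r2-/- cells, against -0.02 and 0.00 over all tested genes.

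In M2 cells 3 members rose in each genotype and they were the same genes: Atp5f1, Ndufa13 and Atp5a1. Of all tested genes 27.0% were called in WT M2 and 32.0% in Ltb4r2-/- M2, 15.2% and 16.9% as higher. No member was called lower at an adjusted p of 0.05 (11.8% and 15% of tested genes were). The median log2 fold change of the 10 members was 0.19 and 0.08, against 0.00 over all tested genes in both. Both genotypes were tested against their own M0 libraries, and the M1 and M2 comparisons of a genotype share these.

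**Figure D2:**
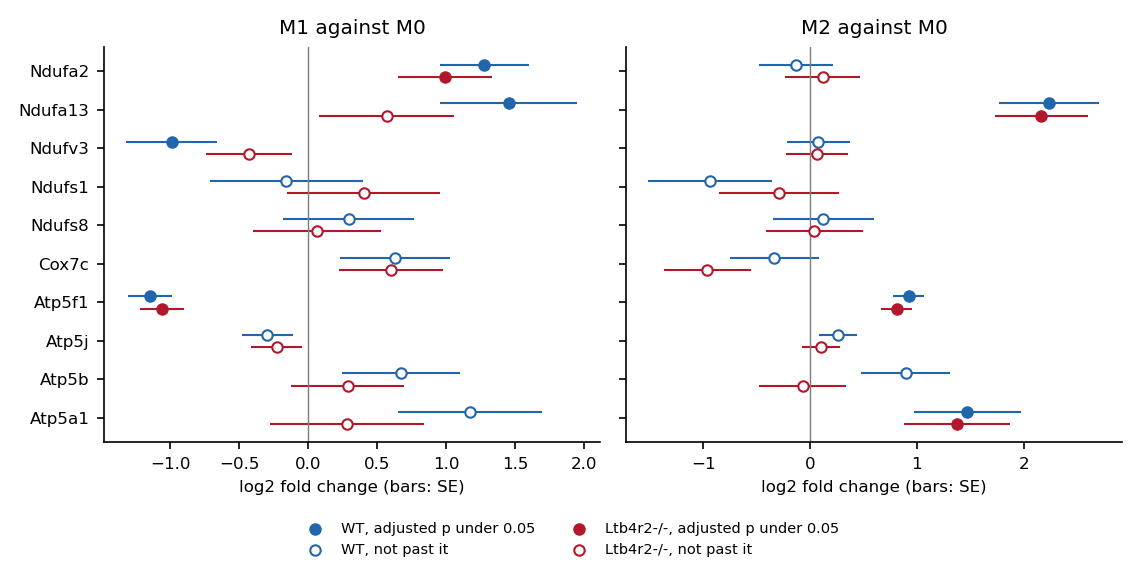
Log2 fold change (horizontal axis, bars are SE) of the 10 tested members in M1 against M0 and in M2 against M0, for WT (blue) and Ltb4r2-/- (red) cells. Filled points passed an adjusted p of 0.05 (edgeR). Atp5f1 lies left of 0 in M1 (-1.15 and -1.06) and right of 0 in M2 (0.92 and 0.81), while Ndufa2 was called in M1 only and Atp5a1 in M2 only.

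Complex I oxidises NADH and is the largest complex of the chain. Its 38 members held 2709 counts (20.5% of the member counts). By mean CPM, Ndufv3 (47.7) and Ndufa2 (36.2) led. Per kilobase of annotated exon, Ndufa2 (63.3 CPM/kb) stood above Ndufa13 (25.5), Ndufs8 (14.99), Ndufv3 (14.95) and Ndufs1 (1.80).

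Ndufa2 encodes a small accessory subunit. Its level in WT was 24.1, 35.3, 34.1 and 21.8 CPM in M0, and 62.9, 72.4, 83.1 and 63.4 CPM in M1. Levels in Ltb4r2-/- cells were 20.0, 27.5, 26.7 and 16.1 CPM in M0, and 56.6, 43.1, 51.5 and 28.5 CPM in M1. The M1 and M0 libraries did not overlap in either genotype. The log2 fold change was 1.28 (SE 0.32, adjusted p = 0.0012) in WT and 0.99 (SE 0.34, adjusted p = 0.015) in Ltb4r2-/- cells. The Ltb4r2-/- call was lost without M0 replicate 4 (0.83, adjusted p = 0.0612) or M1 replicate 1 (0.83, adjusted p = 0.0646). It was also lost with no filter on low counts (0.80, adjusted p = 0.226), and in both genotypes with total-count scaling (0.66 and 0.40). The M2 libraries, at 14.5 to 37.5 CPM in WT and 14.6 to 31.3 CPM in Ltb4r2-/- cells, overlapped M0. Ndufa2 overlaps Tmco6 (90 counts) by 66 exonic bases.

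Ndufa13 (also known as GRIM-19) encodes an accessory subunit of the membrane arm that is also described as a partner of STAT3. Its level in WT was 11.3, 3.72, 14.0 and 11.9 CPM in M0, 26.0, 30.8, 20.8 and 36.6 CPM in M1, and 54.7, 37.4, 53.9 and 52.2 CPM in M2. The 3 WT states did not overlap. Ltb4r2-/- cells had 7.99, 15.3, 5.62 and 29.3 CPM in M0, 14.8, 6.80, 51.5 and 14.3 CPM in M1, and 68.6, 75.2, 60.9 and 63.4 CPM in M2. Here only the M2 libraries stood apart, and M1 replicate 3 lay far above the other M1 libraries. The M2 log2 fold change was 2.24 (SE 0.47, adjusted p = 0.0004) in WT and 2.16 (SE 0.44, adjusted p = 0.0002) in Ltb4r2-/- cells. The M1 change was 1.45 (SE 0.50, adjusted p = 0.015) in WT and 0.57 (SE 0.49, adjusted p = 0.34) in Ltb4r2-/- cells. The difference between the genotypes in this response did not pass the test (interaction -0.88, SE 0.70, adjusted p = 1.00). In WT the M1 call was lost without M0 replicate 2 (1.14, adjusted p = 0.0692), with no filter on low counts (1.29, adjusted p = 0.058) and with total-count scaling (0.83).

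Ndufv3 encodes a small subunit of the NADH-binding module and has no opposite-strand overlap in the annotation. In WT its level was 51.4, 35.3, 71.4 and 47.6 CPM in M0 and 36.9, 23.5, 23.4 and 19.5 CPM in M1, so the groups overlapped in 1 library each. The log2 fold change was -0.99 (SE 0.33, adjusted p = 0.012). It missed the threshold without WT M0 replicate 3 (-0.83, adjusted p = 0.0512). The Ltb4r2-/- levels were 51.9, 61.1, 60.4 and 49.9 CPM in M0 and 46.8, 40.8, 53.9 and 22.8 CPM in M1 (-0.43, SE 0.31, adjusted p = 0.25). The M2 changes were 0.08 and 0.06 (SE 0.30 and 0.29).

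Ndufs1 and Ndufs8 encode iron-sulfur subunits that carry electrons within complex I. Neither was called in any comparison. Ndufs1 ranged from 2.09 to 36.3 CPM over the 24 libraries and Ndufs8 from 5.29 to 31.3 CPM. Ndufs8 means were 16.3, 19.8 and 17.9 CPM in WT M0, M1 and M2. Its log2 fold changes lay between 0.04 and 0.29. Ndufs1 means were 17.5, 15.6 and 9.40 CPM in WT M0, M1 and M2. Its WT M2 libraries (3.53 to 14.6 CPM) lay narrowly below those of M0 (14.9 to 23.3 CPM). The log2 fold change of -0.93 (SE 0.58, adjusted p = 0.26) was not called. In Ltb4r2-/- cells the Ndufs1 libraries of M2 overlapped those of M0 (-0.29, SE 0.56). The 33 other complex I members held at most 108 counts each (Ndufb11) and were not tested.

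**Figure D3:**
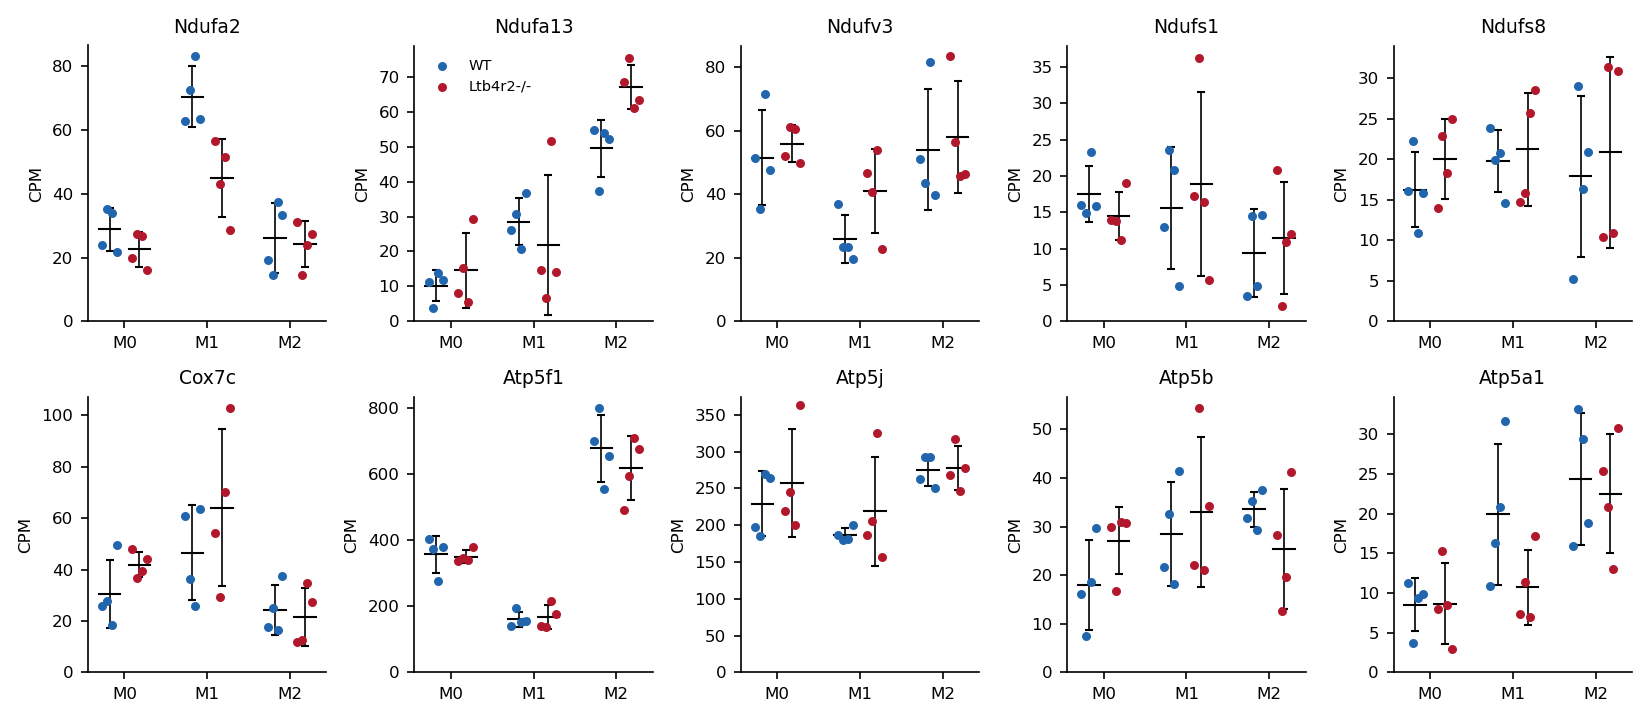
CPM (vertical axes, separate scales starting at 0) of the 10 tested members in every library by polarization state, WT in blue and Ltb4r2-/- in red, with mean and SD. The M2 libraries of Atp5f1 (490 to 800 CPM) and of Ndufa13 (37.4 to 75.2 CPM) lie above those of M0, and the M1 libraries of Ndufa2 lie above M0 in both genotypes.

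Complex II (succinate dehydrogenase) links the citric acid cycle to the chain. Its 4 genes held 215 counts in all and none could be tested. Sdha, the flavoprotein that oxidises succinate, led with 133 counts. It had means of 6.68, 9.76 and 11.6 CPM in WT M0, M1 and M2, and 7.54, 7.94 and 20.0 CPM in Ltb4r2-/- cells, with SDs of 3.66 to 11.1 CPM. The Ltb4r2-/- M2 libraries ranged from 10.4 to 34.8 CPM and overlapped those of M0 (2.00 to 14.7 CPM). Sdhd, a membrane anchor, had 37 counts, none in 9 of the 24 libraries, and at most 11.4 CPM.

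Complex III passes electrons from ubiquinol to cytochrome c. Its 8 genes held 242 counts and none passed the filter. Uqcrh, the hinge protein, led with 67 counts. It had 0, 0, 7 and 1 counts in WT M0 and 4, 5, 5 and 7 counts in WT M1. Ltb4r2-/- cells had 0 counts in all 4 M0 libraries, 4, 4, 2 and 5 counts in M1 and 0, 6, 5 and 1 counts in M2. The limit that 0 counts allow over the Ltb4r2-/- M0 group is 3 counts, or 1.18 CPM. The pooled Uqcrh level was 7.84 times this limit in Ltb4r2-/- M1 (15 counts) and 4.65 times in M2 (12 counts). The counting error of the M1 and M2 counts was left out, so these ratios are not lower bounds. With no filter on low counts edgeR called both differences from M0 (adjusted p = 0.0020 and 0.015). The WT changes had adjusted p = 0.33 and 0.95 in that fit, and the differences between the genotypes in these responses were not called (interaction adjusted p = 0.95 in M1 and 0.89 in M2). Uqcrc1, a core subunit, had 41 counts and at most 15.9 CPM in a library.

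Cytochrome c carries electrons from complex III to complex IV. Cycs had 28 counts in 12 libraries and none in the 8 M0 libraries of either genotype. It had 0, 5, 2 and 2 counts in WT M1, 4, 2, 0 and 2 in Ltb4r2-/- M1, 2, 2, 1 and 0 in WT M2, and 0, 2, 2 and 2 in Ltb4r2-/- M2. The pooled M1 level was 3.83 times the M0 limit of 1.30 CPM in WT and 4.18 times that of 1.18 CPM in Ltb4r2-/- cells. The limit is 3 counts over the M0 group. The counting error of the M1 counts (9 and 8) was left out, so these ratios are not lower bounds. With no filter on low counts the differences of M1 from M0 had adjusted p = 0.0663 and 0.0544 (edgeR). DESeq2 gave adjusted p = 0.0671 in WT and 0.0469 in Ltb4r2-/- cells, the latter a call.

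Complex IV reduces oxygen to water. Its 18 members held 885 counts, 455 of them in Cox7c, which encodes a small structural subunit. Cox7c was at 25.7, 27.9, 18.6 and 49.6 CPM in WT M0, 60.7, 36.2, 26.0 and 63.4 CPM in M1, and 17.6, 24.9, 16.3 and 37.6 CPM in M2. Levels in Ltb4r2-/- cells were 47.9, 36.7, 39.3 and 44.0 CPM in M0, 54.1, 29.5, 70.3 and 103 CPM in M1, and 11.9, 12.5, 34.8 and 27.4 CPM in M2. Its M2 libraries lay below those of M0 in Ltb4r2-/- cells and overlapped them in WT. The M2 log2 fold change was -0.96 (SE 0.41, adjusted p = 0.0695) in Ltb4r2-/- cells and -0.34 (SE 0.42, adjusted p = 0.62) in WT, and neither passed. Cox7a1, the form of subunit 7a typical of heart and skeletal muscle, was second in complex IV with 67 counts and at most 14.3 CPM. It had 1, 1, 0 and 1 counts in WT M0 and 2, 6, 4 and 8 counts in Ltb4r2-/- M0. The genotypes overlapped in M1 (5, 3, 0 and 2 counts in WT, 5, 4, 1 and 5 in Ltb4r2-/- cells). They also overlapped in M2 (3, 0, 2 and 2 against 4, 0, 1 and 7). Cox7a1 did not pass the filter. With no filter on low counts edgeR also called Cox6b1 and Cox7b in WT M1 (adjusted p = 0.0287 and 0.0363, each 0 counts in M0 and 12 in M1) and Cox6a1 in Ltb4r2-/- M2 (adjusted p = 0.0417, 0 counts in M0 and 14 in M2), 3 further small subunits. The other genotype had no such call: adjusted p = 0.28 and 0.45 for Cox6b1 and Cox7b in Ltb4r2-/- M1, and 0.95 for Cox6a1 in WT M2 (-0.77). In that fit 818 of 13709 genes were higher in WT M1, beside 3 of 87 members. In Ltb4r2-/- M2 460 genes and 4 members were. The list of 3 muscle forms (Cox6a2, Cox7a1 and Cox8b) reached 19.1 CPM in a library at most.

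Complex V held most of the counts: its 16 genes had 9043 (68.4%). Atp5f1 encodes subunit b of the peripheral stalk, which keeps the catalytic head from turning with the rotor. Its level in WT was 402, 372, 276 and 379 CPM in M0, 139, 194, 153 and 156 CPM in M1, and 700, 800, 555 and 653 CPM in M2. The Ltb4r2-/- libraries stood at 335, 345, 340 and 379 CPM in M0, 140, 138, 215 and 177 CPM in M1, and 490, 593, 707 and 675 CPM in M2. The 3 states did not overlap in either genotype. The log2 fold change in M1 was -1.15 (SE 0.16, adjusted p = 2.04e-07) in WT and -1.06 (SE 0.16, adjusted p = 8.04e-07) in Ltb4r2-/- cells. In M2 it was 0.92 (SE 0.15, adjusted p = 6.57e-06) and 0.81 (SE 0.14, adjusted p = 3.36e-05). These 4 calls held under every alternative tried and with every single library left out.

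Atp5j encodes coupling factor 6, another part of the peripheral stalk. In WT its level was 198, 186, 270 and 264 CPM in M0, 186, 179, 182 and 200 CPM in M1, and 263, 293, 292 and 251 CPM in M2. In Ltb4r2-/- cells it was 220, 245, 201 and 364 CPM in M0, 187, 206, 326 and 157 CPM in M1, and 268, 318, 246 and 278 CPM in M2. The M1 and M2 libraries overlapped those of M0 in both genotypes. The log2 fold changes were -0.30 and -0.23 in M1 and 0.26 and 0.11 in M2 (SE 0.18 to 0.19), and none passed. Per kilobase of exon, Atp5f1 (94.6 CPM/kb) and Atp5j (76.9 CPM/kb) were the highest of all members.

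The start sites of these leading genes are shown because both overlap exons of a gene on the other strand. Atp5f1 (chromosome 3, 105942698 to 105960099, minus strand) overlaps 337 exonic bases of Wdr77, and Atp5j (chromosome 16, 84827866 to 84835625, minus strand) overlaps 397 exonic bases of Gabpa. Windows from 250 bases before to 50 after a RefSeq start (GRCm38.p6) were searched on both strands for CCGGAAG, the core bound by GABP, for GCGCATG, part of the core bound by NRF1, and for TCTCGCGAGA, the longest palindrome that stands at more than 1 place of the Atp5f1 window. GABP and NRF1 are known regulators of oxidative phosphorylation genes. The third motif was added, and the NRF1 motif shortened, after the windows had been searched once. Capitals mark the motif matches in the strand of the gene. A second RefSeq start of Atp5j has its own window, which is not shown.
Atp5f1, chr3:105959214-105959513, minus strand: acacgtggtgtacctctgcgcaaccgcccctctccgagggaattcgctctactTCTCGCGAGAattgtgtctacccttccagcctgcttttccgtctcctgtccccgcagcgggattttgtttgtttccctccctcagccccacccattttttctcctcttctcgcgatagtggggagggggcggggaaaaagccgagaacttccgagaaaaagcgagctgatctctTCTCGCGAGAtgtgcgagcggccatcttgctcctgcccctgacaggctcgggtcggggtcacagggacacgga
Atp5j, chr16:84834927-84835226, minus strand: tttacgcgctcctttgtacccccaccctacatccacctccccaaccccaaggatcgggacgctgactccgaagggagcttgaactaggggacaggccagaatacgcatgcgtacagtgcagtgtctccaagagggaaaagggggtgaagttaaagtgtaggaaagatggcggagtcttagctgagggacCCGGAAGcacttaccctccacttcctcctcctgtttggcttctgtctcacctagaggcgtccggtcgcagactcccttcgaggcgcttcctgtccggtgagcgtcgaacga

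Of the bases in these windows, 145 of 300 at Atp5f1 lie in annotated exons of Wdr77 or of a further opposite-strand gene (counted together). At Atp5j 200 of 300 lie in exons of Gabpa. The Atp5f1 window holds TCTCGCGAGA at 2 places and neither other motif. The Atp5j window holds CCGGAAG once. Among the 76 members with a window, CCGGAAG was found in 17 (22.4%, against 9.93% of 27025 genes). GCGCATG was in 16 (21.1%, against 4.41%), among them Cycs. This motif was shortened after a first search of these windows, so the contrast was not fixed beforehand. TCTCGCGAGA was in 2, among them Atp5f1, whose own window defined it, so its share cannot be set against that of all genes. Cox6a1 and Atp5k were among the members with both CCGGAAG and GCGCATG. The windows of Ndufa13 and Ndufv3 held none of the 3. These are matches of letters only.

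Atp5b and Atp5a1 encode the catalytic beta and the alpha subunit of the ATP synthase head. Atp5a1 was at 11.3, 3.72, 9.31 and 9.92 CPM in WT M0 and at 15.9, 33.2, 29.4 and 18.8 CPM in WT M2, without overlap. In Ltb4r2-/- cells it was at 7.99, 15.3, 8.43 and 2.93 CPM in M0 and at 25.3, 20.9, 13.1 and 30.8 CPM in M2, with overlap. The M2 log2 fold change was 1.47 (SE 0.50, adjusted p = 0.027) in WT and 1.37 (SE 0.50, adjusted p = 0.032) in Ltb4r2-/- cells. These counts were low (2 to 18 per library). The WT call was kept in 4 of 8 fits that left out a library, and the Ltb4r2-/- call in 3 of 8. Both were lost with no filter on low counts (1.43, adjusted p = 0.189, and 1.34, adjusted p = 0.201), and the Ltb4r2-/- call also with DESeq2 (1.38, adjusted p = 0.0569). WT M1 libraries ranged from 10.8 to 31.7 CPM (1.17, SE 0.52, adjusted p = 0.0589). Atp5b ranged from 7.43 to 54.4 CPM over all libraries and was not called, with log2 fold changes of 0.67 and 0.29 in M1 and 0.89 and -0.07 in M2 (SE 0.41 to 0.43). The other 12 genes of complex V had at most 80 counts each (Atp5h).

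The assembly factors named Ndufaf are not subunits and were counted apart. The 8 genes held 94 counts, 51 in Ndufaf8 and 32 in Ndufaf7, and none passed the filter. Their summed level was 6.57 ± 4.67 CPM in WT M0 and 13.9 ± 5.34 CPM in the highest group, Ltb4r2-/- M2.

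The genes on the other strand were measured as rows of their own. Of the 29 members with an overlap, 23 have a partner with a row, and these 24 partners held 34290 counts against 13216 for all members. In 14 of the 24 pairs the partner had more counts than the member. The imbalance ran in both directions: Wdr77 had 4 counts beside 5046 of Atp5f1, and Cbarp had 5912 beside 41 of Atp5d. Atp5f1 also overlaps another opposite-strand gene, which has no row. Ino80dos had 17208 counts beside 185 of Ndufs1.

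**Figure D4:**
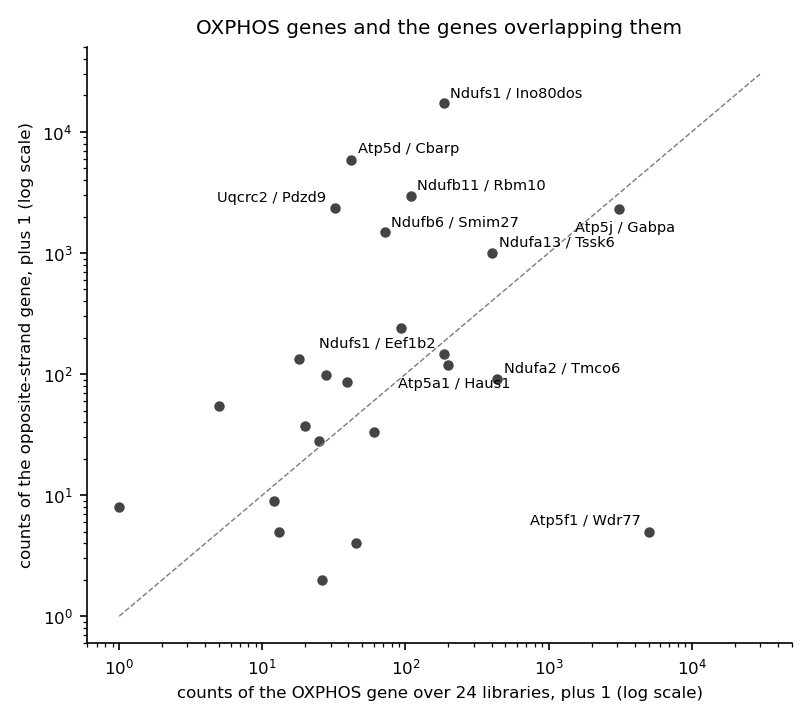
Counts over 24 libraries, plus 1, of each member (horizontal, log scale) and of the gene that overlaps it on the opposite strand (vertical, log scale), for 24 pairs. The dashed line marks equal counts, and 14 of the 24 pairs lie above it.

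Several partners changed with polarization beside a member that was not tested (Ndufb11 and Uqcrc2) or not called (Ndufs1). Rbm10, an RNA-binding splicing regulator next to Ndufb11, fell in M1 from 329 ± 42.9 to 124 ± 19.3 CPM in WT and from 346 ± 32.8 to 124 ± 26.5 CPM in Ltb4r2-/- cells (log2 fold change -1.40 and -1.48, SE 0.16 in both, adjusted p = 3.09e-09 and 1.05e-09). It was also lower in M2 (-0.76 and -0.70, adjusted p = 0.0002 and 0.0003). Ino80dos, a transcript of the strand opposite Ndufs1, rose in M2 from 1103 ± 89.7 to 1977 ± 43.3 CPM in WT and from 1010 ± 147 to 2053 ± 122 CPM in Ltb4r2-/- cells (0.84 and 1.02, SE 0.10 in both, adjusted p = 6.06e-08 and 6.57e-10). Pdzd9, opposite Uqcrc2 (31 counts), rose in M2 from 133 ± 26.4 to 246 ± 33.2 CPM and from 136 ± 29.2 to 249 ± 41.4 CPM (0.88 and 0.87, adjusted p = 0.0002 in both). Pdzd9 was also higher in WT M1 (0.44, adjusted p = 0.0389).

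Tssk6, a testis-expressed kinase gene opposite Ndufa13, had 1008 counts and fell in Ltb4r2-/- M1 (-0.89, SE 0.30, adjusted p = 0.0125). In WT M1 its change was -0.69 (adjusted p = 0.0503). Its M2 changes were -0.25 and -0.36 and did not pass, whereas Ndufa13 rose in M2 in both genotypes. Gabpa, which encodes the DNA-binding subunit of GABP, had 2298 counts and was not called in any comparison.

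In 3 libraries Gabpa stood far above the rest, at 366 CPM in WT M0 replicate 3, 461 CPM in Ltb4r2-/- M0 replicate 4 and 368 CPM in Ltb4r2-/- M1 replicate 3. The other 21 libraries lay between 111 and 199 CPM. The same libraries had the highest Atp5j of their groups (270, 364 and 326 CPM), and also the highest Ndufa13 (14.0, 29.3 and 51.5 CPM). Without these 3 libraries, an alternative chosen after seeing the data, the Ndufv3 call in WT M1 (-0.79, adjusted p = 0.0661), the Ndufa2 call in Ltb4r2-/- M1 (0.78, adjusted p = 0.11) and the Atp5a1 call in Ltb4r2-/- M2 (1.07, adjusted p = 0.13) were lost, and those of Atp5f1 and Ndufa13 were kept. Why these libraries stood apart was not tested.

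**Figure D5:**
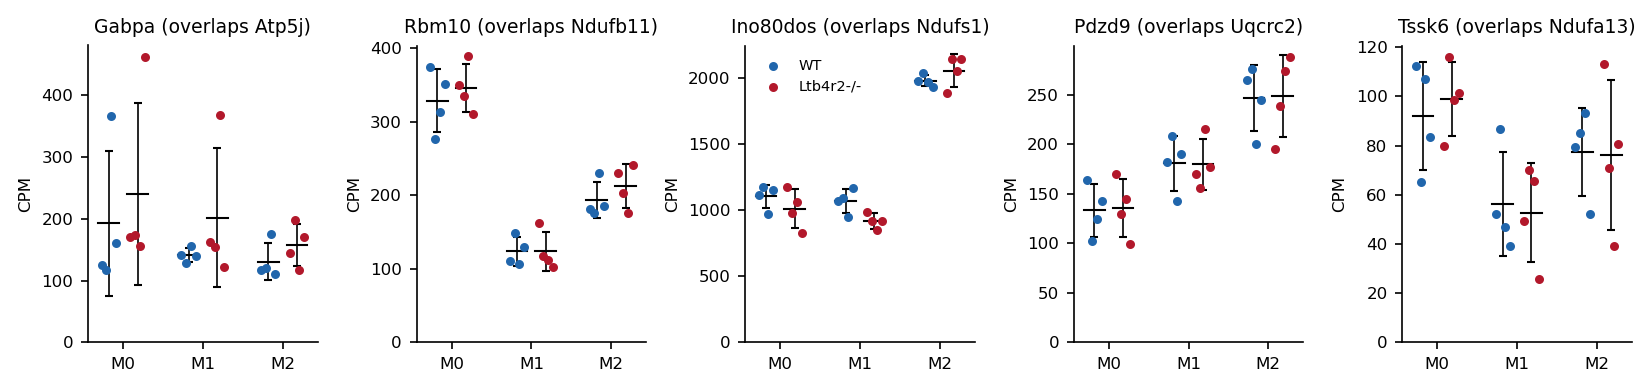
CPM (vertical axes, separate scales starting at 0) of 5 genes that overlap a member on the opposite strand, by polarization state, WT in blue and Ltb4r2-/- in red, with mean and SD of 4 libraries. Rbm10 is lowest in M1 (124 CPM in both genotypes), Ino80dos and Pdzd9 are highest in M2, and single libraries of Gabpa reach 366 to 461 CPM.

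No tested member was called between the genotypes. Libraries of each state were compared in fits of 8 libraries, in which 7 members passed the filter in M0, 7 in M1 and 9 in M2. The calls were 0 in each state by edgeR, while 0.131% of the 2283 genes tested in M0, 0.0509% of the 1963 tested in M1 and 0.19% of the 2110 tested in M2 passed. No member reached an unadjusted p under 0.05 in these fits either (0 in each state). Of the tested genes 5.91% (M0), 7.49% (M1) and 2.99% (M2) did. With RLE scaling 1 member did in M1, beside 148 of 1963 genes. With no filter on low counts 3 of 77, 0 of 73 and 5 of 83 members did (M0, M1 and M2). Of all genes in those fits, 421 of 11679, 424 of 11007 and 364 of 11673 did. DESeq2 called 0 members in each state, with 2, 73 and 83 tested. At an unadjusted p under 0.05 it had 1, 0 and 2 members, beside 155, 180 and 116 genes.

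The members with the smallest p in M0 were Cox7c (log2 fold change of Ltb4r2-/- against WT 0.47, SE 0.33), Atp5b (0.58, SE 0.42) and Ndufa2 (-0.36, SE 0.35). In M1 they were Ndufa2 (-0.62, SE 0.29), Ndufv3 (0.69, SE 0.39) and Atp5j (0.26, SE 0.20). In M2 they were Ndufa13 (0.44, SE 0.25), Atp5b (-0.36, SE 0.38) and Atp5f1 (-0.12, SE 0.14). The adjusted p of these genes was 0.63 or above. Atp5f1, the member with the most counts, had genotype differences of -0.03 (SE 0.12) in M0, 0.08 (SE 0.20) in M1 and -0.12 (SE 0.14) in M2. The SE of the other members was 0.13 to 0.54.

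None of the 10 members was called in the interactions of genotype with polarization (0 called by edgeR and by DESeq2). By edgeR 0.0328% of 3047 tested genes were called in each interaction. In this fit 0 members and 4.63% and 4.73% of tested genes reached an unadjusted p under 0.05. With no filter on low counts 8 and 7 of 87 members reached it (M1 and M2), beside 708 and 758 of 13709 genes. With DESeq2 1 and 2 members did, beside 237 and 240 genes. In the M1 interaction the smallest p belonged to Ndufa13 (-0.88, SE 0.70), Ndufv3 (0.56, SE 0.45) and Atp5a1 (-0.89, SE 0.77). In the M2 interaction they belonged to Atp5b (-0.96, SE 0.58), Cox7c (-0.63, SE 0.59) and Ndufs1 (0.65, SE 0.81). All had adjusted p = 1.00.

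Other genes of mitochondrial respiration were read from lists that hold no member. Among 43 other assembly factors with a row, 12 were tested. In WT M1, 2 were higher and 6 lower (in Ltb4r2-/- M1, 2 and 5), with a median log2 fold change of -0.94 and -0.91 against -0.02 and 0.00 over all tested genes. Among all tested genes 51.2% and 52.8% were called in M1, 24.3% and 25.7% as lower. Sco1, a copper chaperone of complex IV, rose in M1 (5.36, SE 0.75, adjusted p = 2.99e-07 in WT, and 4.00, SE 0.63 in Ltb4r2-/- cells). Coa5 rose in WT M1 (4.15, SE 0.79), and its M1 interaction with genotype was not called (-1.64, SE 1.11). Ecsit, a complex I assembly factor that also acts in Toll-like receptor signaling, fell in M1 (-1.82, SE 0.28, and -1.97, SE 0.28) and overlaps Gm16845 by 598 bases. In M2, 0 were higher and 3 lower in WT, and 1 and 4 in Ltb4r2-/- cells, where 27.0% and 32.0% of all tested genes were called. Cmc1 fell in Ltb4r2-/- M2 (-0.68, SE 0.17, adjusted p = 0.0020). Those lower in both genotypes included Ttc19, a complex III factor (-0.55, SE 0.11, and -0.44, SE 0.11), and Oxa1l, an inner membrane insertase (-1.72, SE 0.21, and -2.12, SE 0.20). Oxa1l also fell in Ltb4r2-/- M1 (-1.74, SE 0.20, adjusted p = 5.00e-09), with an M1 interaction that was not called (-0.82, SE 0.28, adjusted p = 0.99). None of the 12 was called in an interaction of genotype with polarization. No polarization change in this list was thus shown to be particular to 1 genotype. Oxa1l, which overlaps Slc7a7, was the only gene of this list called between genotypes (1.26, SE 0.19, adjusted p = 0.0034 in M0).

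Among citric acid cycle and pyruvate dehydrogenase genes, Pdha1, the catalytic alpha subunit of pyruvate dehydrogenase, fell in M1 (-1.74, SE 0.23, and -2.59, SE 0.25) and in Ltb4r2-/- M2 (-1.0, SE 0.21, adjusted p = 0.0003), and it overlaps Map3k15 by 603 bases. Of 19 regulators of mitochondrial gene expression 9 were tested. In M1, 3 were higher and 1 lower in WT, and 2 and 1 in Ltb4r2-/- cells. In M2 of either genotype 2 were higher and 0 lower. Of all tested genes 51.2% and 52.8% were called in M1 (WT and Ltb4r2-/-) and 27.0% and 32.0% in M2. Polg2, the accessory subunit of the mitochondrial DNA polymerase, rose in M1 (1.10, SE 0.13, and 1.08, SE 0.13). Polg, the catalytic subunit of that polymerase, fell in WT M1 (-2.84, SE 0.49, adjusted p = 8.41e-06) and had a change of -1.21 (SE 0.52, adjusted p = 0.0522) in Ltb4r2-/- M1. It rose in M2 (1.38, SE 0.33, and 2.78, SE 0.36) and overlaps Fanci by 921 bases. Gabpb1, a GABP subunit, was the gene called lower in Ltb4r2-/- M1 (-1.37, SE 0.59, adjusted p = 0.0488). None of the 9 regulators was called in an interaction of genotype with polarization. Twnk, the mitochondrial DNA helicase, was higher in all 4 polarization comparisons, by 0.24 to 0.39 on the log2 scale with TMM scaling. Of 23 ubiquinone pathway and carrier genes 6 were tested, and 3 were higher in WT M1 and 2 in Ltb4r2-/- M1, among them Gpd2, the mitochondrial glycerol-3-phosphate dehydrogenase (2.25, SE 0.56, and 1.87, SE 0.56). Coq4 was the other gene higher in both (0.51 and 0.46, SE 0.19), and Pdss1, which makes the side chain of ubiquinone, rose in WT M1 (0.64, SE 0.14). None of the 6 was called in M2 or in an interaction of genotype with polarization.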

How the data were processed

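RNA from 24 BMDM cultures was sequenced as strand-specific poly(A) libraries. Per the study's methods, the authors trimmed reads with cutadapt, checked them with FastQC, aligned them with STAR to mm10 and counted them per gene with HTSeq. Versions and the strand setting of the counting are not given in the sources used here. The deposited values are raw read counts per gene, with 427825 to 729580 counts per library. A second deposited table of log2 values after DESeq2 scaling was not used. No per-sample column lacked a label (0). There were 7 symbols that occur more than once, and each of their rows was kept.

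Counts were tested with edgeR 4.0.16 (R 4.3.3, limma 3.58.1) by quasi-likelihood F tests with TMM scaling, after filterByExpr (minimum count 10, minimum total 15), and p-values were Benjamini-Hochberg adjusted over all tested genes with a threshold of 0.05. The 4 polarization comparisons and 2 interactions of genotype with polarization were fitted over all 24 libraries, and genotypes were compared within a state in fits of 8 libraries. SE are log2 fold changes divided by the square root of F. CPM used TMM-scaled library sizes. Opposite-strand exon overlaps came from GENCODE M21, and promoter windows and symbols from RefSeq. The fits were tested on simulated data.

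The text names all called members, the 2 members of each complex with the highest mean CPM, the 3 with the smallest p where none was called, the Ndufaf genes, the opposite-strand partners of these, and genes of the other lists that were among the 3 with the smallest p in a polarization comparison, of which not all are printed. Cox6a1, Cox6b1, Cox7b, Atp5k, Ndufb11, Atp5d, Uqcrc2, Atp5h and their partners were named after their values were seen. The members and lists were chosen with earlier results of these data known. Alternatives were RLE scaling, scaling by total count, filtering off, a filter at a mean of 50 counts, the Wald test of DESeq2 1.42.0, other sets of libraries in the fit, a replicate block and leaving out each library. Leaving out 3 libraries high in Gabpa was added after seeing the data. One result of the citric acid cycle and pyruvate dehydrogenase list is not reported here.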

Additional observations from a re-analysis of the deposited data

Results flagged for a closer look

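Groups of 4 libraries were looked at for the 10 tested members, the tested opposite-strand partners of any member, and the member sum. In 9 of 120 such groups, 1 library stood apart from the other 3 by Dixon's 95% criterion. Chance gives about 1 in 20. Among the members, Atp5b was at 16.8 CPM in Ltb4r2-/- M0 replicate 2 (others 29.9 to 30.9), Ndufa13 at 37.4 CPM in WT M2 replicate 2 (others 52.2 to 54.7), and Ndufs1 at 23.3 CPM in WT M0 replicate 3 (others 14.9 to 16.1). The summed CPM of all members was 1558 in WT M2 replicate 2 and 1335 to 1342 in the others of that group. Among the opposite-strand partners, Gabpa was at 461 CPM in Ltb4r2-/- M0 replicate 4 (others 156 to 174), at 368 CPM in Ltb4r2-/- M1 replicate 3 (others 123 to 162) and at 175 CPM in WT M2 replicate 3 (others 111 to 121). Eef1b2, which overlaps Ndufs1, was at 25.1 CPM in Ltb4r2-/- M2 replicate 2 (others 12.0 to 13.4), and Smim27, which overlaps Ndufb6, at 103 CPM in Ltb4r2-/- M1 replicate 4 (others 136 to 141). The cause of these values was not tested.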

How the results depend on the processing

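At this depth only 10 of the 93 genes could be tested. The calls of Atp5f1 in all 4 polarization comparisons and of Ndufa13 in M2 were kept under every alternative in which they could be tested. Scaling by total count alone moved the summed CPM to 1043, 605.8 and 1564 (WT M0, M1 and M2) and 1117, 627.8 and 1536 (Ltb4r2-/-). In M1 it left 0 members higher and 3 lower in each genotype, beside 475 higher and 1358 lower of 3047 genes in WT and 506 and 1370 in Ltb4r2-/- cells. It reversed the uncalled Ltb4r2-/- M1 changes of Ndufa13 (-0.012) and Atp5a1 (-0.30). A mean of at least 50 counts left 2 members tested, with 0 higher in M1 in either genotype, 1 lower in M1 in each genotype, and 1 higher in M2 in each genotype. Of the 959 genes of that fit, 315 were higher and 355 lower in WT M1, and 319 and 358 in Ltb4r2-/- M1. In M2 255 (WT) and 268 (Ltb4r2-/-) were higher. Fitting only the 8 libraries compared gave 1 higher in WT M1, beside 658 of 2208 genes. With no filter on low counts 3 were higher and 2 lower in WT M1, 1 and 1 in Ltb4r2-/- M1, and 2 and 4 higher in WT and Ltb4r2-/- M2. The member higher in Ltb4r2-/- M1 was then Uqcrh, while the Ndufa2 call was lost. Of the 13709 genes of that fit, 818 were higher and 847 lower in WT M1. In Ltb4r2-/- M1 839 and 909 were, and 338 and 460 were higher in WT and Ltb4r2-/- M2. DESeq2, which tested more low members, gave 3 of 43 higher in Ltb4r2-/- M1, beside 995 of 6799 genes. Without the 3 libraries high in Gabpa, 1 was lower in WT M1 and 0 higher in Ltb4r2-/- M1, beside 715 and 775 of 3136 genes. Leaving out single libraries gave 1 to 3 higher and 1 to 2 lower in WT M1, 0 to 1 higher and 1 to 2 lower in Ltb4r2-/- M1, and 0 to 1 lower in Ltb4r2-/- M2 (1 without M2 replicate 3). The uncalled Ltb4r2-/- M1 changes then ranged from -0.34 (without M1 replicate 3) to 1.145 for Ndufa13 and from -0.036 (without M1 replicate 4, and -0.035 without M0 replicate 4) to 0.67 for Atp5a1. The uncalled genotype difference of Atp5j in M1 ranged from -0.026 (without Ltb4r2-/- M1 replicate 3, as also without the 3 Gabpa libraries) to 0.37. The cause was not tested. No source states that a replicate number marks one mouse. Deviations of same-numbered libraries correlated at -0.069 to 0.14 within a genotype, and all 4 WT pairs of M0 and M1 correlated best with their own number. No other pair of states did so for all 4. In Ltb4r2-/- M0 and M2, replicates 1, 3 and 4 did and replicate 2 did not. Whether the numbers mark the same mice was thus not settled. A replicate block gave 1 member lower in Ltb4r2-/- M2 (Cox7c) and lost the Atp5a1 calls in M2 (adjusted p = 0.054 in WT and 0.066 in Ltb4r2-/-).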
